A study of Mus musculus with 16 samples.

Results

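The nuclear-encoded subunits of the mitochondrial respiratory chain are the 79 protein-coding genes, of 15895 genes listed, whose symbols carry the family names of complexes I to V (Ndufa, Ndufb, Ndufc, Ndufs and Ndufv; Sdha to Sdhd; Uqcr; Cox4 to Cox8; Atp5), leaving out Uqcrc1 and the assembly factors named Ndufaf. By these names 37 belong to complex I, 4 to complex II, 7 to complex III, 14 to complex IV and 17 to complex V. The families do not match the complexes in every case: Ndufa4 is named for complex I and is known as a subunit of complex IV, Cox7a2l is known for joining complexes III and IV, and Atp5s and Atp5sl carry the ATP synthase name without being subunits of its core. The muscle isoform Cox7a1 and the testis isoform Cox6b2 are not among the genes listed under these names, so they could not be analysed here.

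RNA was sequenced from lymphatic endothelial cells of the hearts of CD1 mice, operated on postnatal day 1 (P1) or 56 (P56), either with a myocardial infarction (MI) or as sham, and killed 3 days later. The cells were released with enzymes and sorted as negative for CD45, a leukocyte antigen, and positive for CD31, an endothelial antigen, and podoplanin, a lymphatic antigen. Neonatal ventricles were minced and pooled before digestion with Liberase, and a Percoll fraction enriched in non-myocytes was sorted. Adult hearts came from males and were perfused with Liberase through the aorta, and whether they too were fractionated is not given in the sources used here. Age therefore cannot be told apart from digestion, pooling and sex. The 4 groups, sham and MI at P1 and sham and MI at P56, have 4 libraries each. The adult infarct was made by tying off a coronary artery, and sham animals had the same operation without it. The labels do not tie libraries to single animals or pools. Every p-value below therefore measures the spread between these libraries, which may be technical.

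Oxidative phosphorylation is the last stage of respiration. Complex I (NADH dehydrogenase) and complex II (succinate dehydrogenase, which is also an enzyme of the TCA cycle) pass electrons through complex III to complex IV (cytochrome c oxidase), which reduces oxygen. Complexes I, III and IV pump protons, and complex V (ATP synthase) uses the gradient to make ATP. Most subunits are encoded in the nucleus and a few by mitochondrial DNA. Several complex IV subunits have a common form and a form of heart and skeletal muscle, as Cox6a1 and Cox6a2 or Cox8a and Cox8b do. Endothelial cells are known to rely largely on glycolysis, whereas cardiomyocytes are among the cells richest in mitochondria.

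The promoters of the genes on which the results turn are shown first. Of the 79 members, 65 matched a RefSeq promoter (build GRCm38.p6, 250 bases before to 50 after the start), with 71 promoters in all. Among the 14 that did not match were Cox6a2, Cox4i1, Cox4i2, Ndufa4l2, Sdhc and Atp5a1. The stretches below are the 120 bases before each gene as listed, 5′ to 3′ on the gene's strand. They are Cox8a (chr19:7217617-7217736, minus strand) and Cox8b (chr7:140900447-140900566, minus), a pair of common and muscle isoforms; Cox6a1 (chr5:115348982-115349101, minus), the common partner of Cox6a2; and Sdha (chr13:74350281-74350400, minus) and Sdhb (chr4:140961083-140961202, plus), the complex II subunits described below. Capitals mark matches to GCGCANGCG or its reverse complement CGCNTGCGC, the letters searched for the motif of NRF-1, a factor known for binding promoters of respiratory genes.
Cox8a: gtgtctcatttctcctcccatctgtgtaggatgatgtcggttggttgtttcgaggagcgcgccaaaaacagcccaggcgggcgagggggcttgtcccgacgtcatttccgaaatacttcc
Cox8b: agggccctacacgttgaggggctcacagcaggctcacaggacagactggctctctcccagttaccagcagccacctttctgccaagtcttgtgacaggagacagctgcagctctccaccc
Cox6a1: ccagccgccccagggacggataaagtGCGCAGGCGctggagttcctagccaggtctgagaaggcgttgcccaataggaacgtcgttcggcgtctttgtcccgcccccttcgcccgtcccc
Sdha: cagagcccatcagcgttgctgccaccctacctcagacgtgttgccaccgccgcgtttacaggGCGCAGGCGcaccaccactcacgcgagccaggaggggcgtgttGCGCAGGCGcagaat
Sdhb: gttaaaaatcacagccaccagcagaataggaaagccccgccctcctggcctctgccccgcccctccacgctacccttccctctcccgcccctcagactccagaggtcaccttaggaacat
The Sdha stretch held the NRF-1 letters at 2 places and the Cox6a1 stretch at 1. Over the whole promoters, 28.2% of those of the members held GCGCANGCG on either strand, against 6.25% of 32851 promoters of the same length. CCGGAAG, the letters searched for GABP (also called NRF-2), were in 22.5% against 8.86%, and AAGATGGC, for YY1, in 16.9% against 2.75%. TATAAA was in 9.86% of the members' promoters and 13.6% of all. Of these 4 motifs the Cox8b promoter held only TATAAA, and the Cox8a promoter only the GABP letters. A match describes letters in a window and shows no binding.

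The 16 libraries had 17103319 to 43837520 reads on the listed genes. In 3 of them (sham P1 libraries 1 and 2 and MI P56 library 5) fewer than 10000 genes had a read, and the 79 members together had 88 to 19210 reads there, with 27 to 45 members at 0. In the other 13 (4 sham P56, 3 MI P56, 2 sham P1 and 4 MI P1) the members had 16686 to 38773 reads, 0.281% to 0.422% of the reads outside Uqcrc1 and mitochondrially encoded genes, and at most 2 members were at 0. Values and tests below are from these 13 unless the fit with all 16 is named. Values are in the deposited unit, in which 1 read was worth 0.0163 to 0.0362. The 7 lymphatic markers in the table (among them Prox1, Lyve1 and Flt4) summed to 1066 to 3228, with none at 0 in any of the 13 libraries. The 14 cardiomyocyte markers (among them Myh6, Ttn and Tnnt2) were not at 0 in any of them either. Cell numbers and RNA per cell cannot be told apart in such bulk libraries.

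Most members were expressed at low levels. The median of the members' mean values was 3.30, close to the 3.33 of all genes; 52 members had a mean under 5, 24 from 5 to 20 and 3 of at least 20. Their exons are short in total, with a median of 1.587 kb against 4.004 kb for all genes, so levels between genes are compared per kb. This length merges the exons of all annotated transcripts of a gene. It can exceed that of any single transcript, which lowers the value per kb (Ndufs1 has 8.086 kb). The catalytic beta subunit of ATP synthase, Atp5b, was highest at 43.6 per kb, and the alpha subunit, Atp5a1, came next at 23.7. Cox6a1 followed at 10.8, Atp5c1 (the gamma subunit, the turning shaft of the enzyme) at 9.92 and Sdha (the flavoprotein that oxidises succinate) at 9.68. These 3 neighbours in the order differed by less than the spread of each over the 13 libraries. The lowest was Atp5g2, at 0.159 per kb, 1 of 3 genes for the same membrane ring subunit c of ATP synthase; Atp5g3, at 6.13, held most of the expression of these 3 and Atp5g1 was at 0.305.

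**Figure D1:**
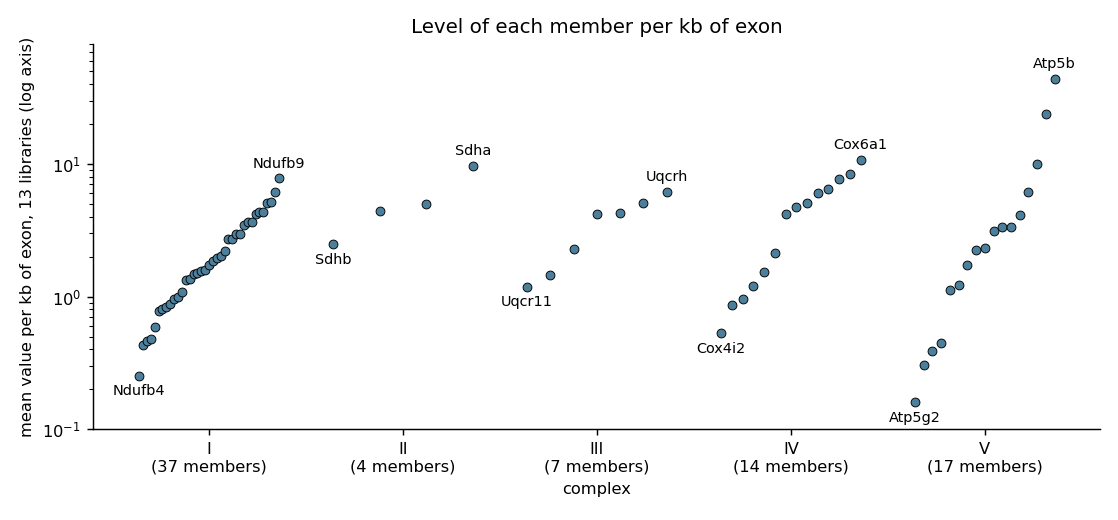
Mean value per kb of merged exon over 13 libraries (log axis) for the 79 members, 1 point each, sorted within complexes I to V. The highest and lowest member of each complex is named; Atp5b stands highest, at 43.6, and Atp5g2 lowest, at 0.159.

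Within complexes, levels per kb ranged widely. In complex I the highest was Ndufb9, an accessory subunit, at 7.78, and the lowest Ndufb4, also accessory, at 0.254. Of the core subunits, the iron-sulfur subunit Ndufs1 was at 1.35, the NADH-binding Ndufv1 at 1.08 and Ndufs3 at 0.594. Complex II ran from Sdhb, the iron-sulfur subunit, at 2.49 to Sdha at 9.68, with the membrane anchors Sdhc at 4.38 and Sdhd at 5.01. In complex III the hinge protein gene Uqcrh was highest at 6.17, the Rieske iron-sulfur protein gene Uqcrfs1 was at 5.10, and Uqcr11 was lowest at 1.19. In complex IV the range was from Cox4i2, a lung and low-oxygen isoform, at 0.527 to Cox6a1 at 10.8. Many of these genes share sequence with other annotated genes. For 28 members a transcript of at least 1 other gene was near-identical (95% identity over at least 200 bases), up to 11 genes for Atp5l. Positions were not checked, so genes that overlap a member count here as well as copies elsewhere. Reads of these members could be split or dropped by the authors' counting. None was found for Cox6a2, Cox8b, Sdha, Sdhb, Ndufa5, Atp5b or Atp5a1.

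Added up, the members were within a narrow range in all libraries but 1. The sum was 570 and 604 in sham P1, 599 to 665 in MI P1, 571 to 602 in MI P56 and 631, 985, 622 and 643 in the sham P56 libraries 1, 2, 3 and 5. Sham P56 library 2 stood apart: it had the highest value of its group for 37 of 79 members and the highest of all 13 libraries for 32, and it had a read on the fewest genes of the 13 (14121). The sham P56 mean was 720 ± 177 (SD, n = 4) with it and 632 ± 10.7 (n = 3) without it, against 590 ± 16.3 (n = 3) in MI P56, so that the ratio of MI to sham was 0.819 or 0.934. The lowest ratio was that of complex II. Its summed value was 77.5 to 130 in sham P56, above 55.5 to 61.3 in MI P56 and 43.9 to 64.8 in both neonatal groups, with no overlap of sham P56 with the others. Such sums follow the most abundant genes. Sdha had means of 60.5 in sham P56 and 36.4 in MI P56, within complex II means of 94.0 and 57.7. Atp5b and Atp5a1 had sham P56 means of 163 and 99.5, within 355 for complex V. The MI to sham ratio at P56 was 0.614 for complex II (0.703 without sham P56 library 2), against 0.810 for complex I, 0.722 for complex III, 0.816 for complex IV and 0.889 for complex V (0.869, 0.891, 0.951 and 1.03).

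**Figure D2:**
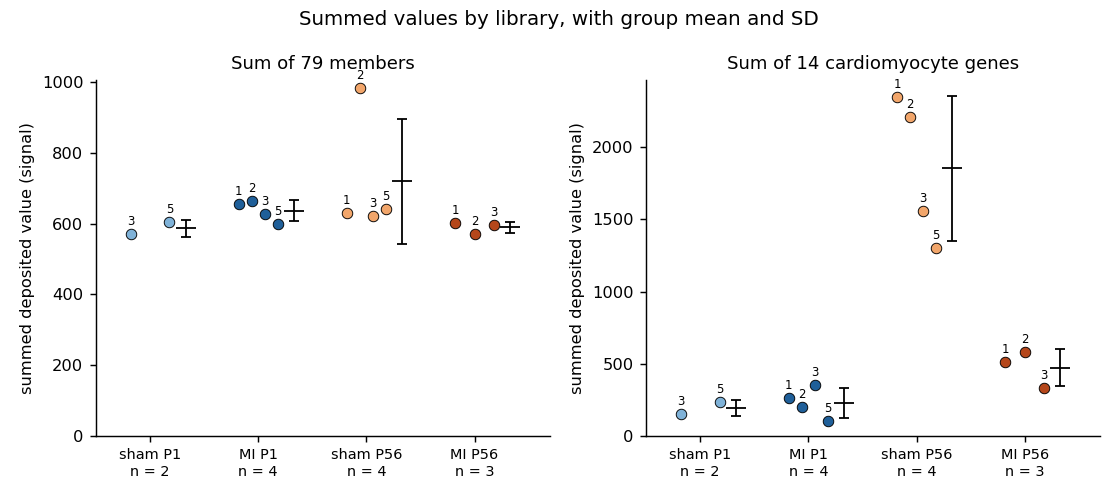
Summed deposited values (signal) of the 79 members, left, and of 14 cardiomyocyte marker genes, right, in the 13 libraries, with the library number over each point and the group mean and SD as bars. The members' sums lie between 570 and 665 apart from sham P56 library 2 at 985, while all 4 sham P56 libraries lie above all others for the cardiomyocyte genes.

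The first question was which subunit genes respond to infarction in adults. Cox6a2, the heart and skeletal muscle form of cytochrome oxidase subunit VIa (chromosome 7, 128205435 to 128206387, GRCm38), fell. It was at 8.05, 17.1, 7.92 and 5.77 in the sham P56 libraries and at 0.882, 1.12 and 0.749 in the MI P56 libraries, so the lowest sham value lay far above the highest MI value. The mean of 9.70 ± 5.02 (n = 4) was 10.6 times that of 0.917 ± 0.189 (n = 3). The log2 difference of value + 1 was -2.38 ± 0.35 (SE; limma adjusted p = 7.2e-04 over all genes), -2.62 ± 0.42 with all 16 libraries (adjusted p = 0.00625). It was -2.10 when sham P56 library 2 was left out (adjusted p = 3.35e-04). Adding 1 before taking logs understates the change of low genes. Of the 72 members that passed the filter on low values (at least 1 in at least 4 libraries), this was the 1 called, at an adjusted p under 0.05, where 3.42% of all genes tested were called (2.36% higher and 1.07% lower). With 16 libraries it was again the 1 member called, where 0.174% of all genes were. Cox6a2 met the filter through the sham P56 libraries. Outside them only MI P1 library 2 (1.05) and MI P56 library 2 (1.12) reached 1. With no filter on low values it was called as well, where 2.78% of all genes were.

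The common form of the same subunit did not follow it. Cox6a1 (chromosome 5, 115345642 to 115348981) was at 6.57, 6.29, 5.16 and 7.84 in sham P56 and at 8.91, 8.93 and 10.9 in MI P56. Every MI value lay above every sham value, as for 8% of all genes tested, and the log2 difference was 0.51 (95% interval -0.07 to 1.10; limma adjusted p = 0.365). As a share of the reads on both genes, Cox6a2 made up 55.1%, 73.1%, 60.6% and 42.4% in the sham P56 libraries and 9.00%, 11.2% and 6.41% in the MI P56 libraries. In the neonatal libraries this share was 3.16% to 13.4%. The share does not depend on the scaling between libraries, and its exact binomial 95% intervals (38.9% to 45.9% for the lowest sham P56 library, 8.45% to 14.4% for the highest MI P56 library) cover counting error only, since amplified reads are not independent molecules.

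A like pattern was seen in Cox8b, the muscle form of subunit VIII (chromosome 7, 140898945 to 140900446), at far lower counts. It had 43, 51, 87 and 38 reads in the sham P56 libraries and 0, 14 and 12 in the MI P56 libraries, and 1 to 6 reads in each neonatal library. Its values were 0.964, 1.32, 1.57 and 0.646 in sham P56 and 0, 0.302 and 0.195 in MI P56, without overlap. As 1 of the 7 members below the filter it was not tested in the main fit. With no filter on low values its log2 difference was -0.85 (limma adjusted p = 0.0368), where 2.78% of all genes were called. Cox8b made up 27.7%, 33.3%, 46.5% and 18.8% of the reads on Cox8a and Cox8b in sham P56. In MI P56 it made up 0%, 6.48% and 4.20%, and in neonates 0.758% to 3.95%. For the 0 of 381 reads, a limit of 3 reads is a share of 0.787%, and the exact 95% interval reaches 0.964%. The common form Cox8a was at 2.51, 2.64, 1.81 and 2.79 in sham P56 and 7.46, 4.36 and 4.46 in MI P56, again with every MI value above every sham value (log2 difference 0.88, limma adjusted p = 0.274).

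**Figure D3:**
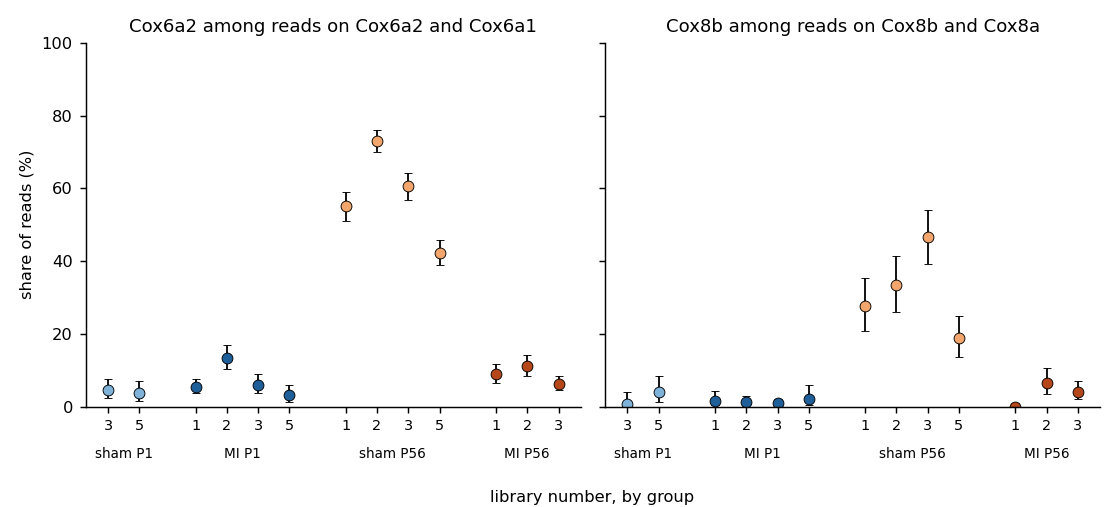
Share of reads (%) on the muscle isoform among the reads on both isoforms, Cox6a2 with Cox6a1 on the left and Cox8b with Cox8a on the right, 1 point per library with its exact 95% binomial interval (counting error only). The 4 sham P56 libraries lie at 42.4% to 73.1% and 18.8% to 46.5%, and no library of another group exceeds 13.4% or 6.48%.

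The other tissue isoforms did not show this pattern. Cox4i2 was at 0 in sham P56 library 2 and MI P56 library 2 and highest, at 1.78, in MI P56 library 1, where it made up 21.4% of the reads on Cox4i1 and Cox4i2. Elsewhere its share was 0% to 12.7%, with the groups overlapping. Ndufa4l2, a form induced by low oxygen and also known in pericytes, was at 0.0448 to 0.783 in sham P56 and 0.474 to 1.76 in MI P56, and both genes were below the filter.

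Cardiomyocyte transcripts were also highest in the sham P56 libraries. The 14 cardiomyocyte markers summed to 1304 to 2346 in sham P56, 329 to 578 in MI P56, 152 and 231 in sham P1 and 105 to 351 in MI P1. Of the 14, 11 were called lower in MI than in sham at P56 and 0 higher, where 1.07% and 2.36% of all genes were. In sham P56 against sham P1, 13 were called higher, where 5.89% of all genes were. Markers of blood endothelium (10 genes; 908 to 1341 in sham P56, 389 to 690 in MI P56, 4 called lower) and of pericytes and smooth muscle (9 genes; 467 to 1178 and 224 to 358; 2 called lower, 1 higher) had lower sums after MI too. Of 8 fibroblast markers 3 were called higher (sums of 776 to 3748 in sham and 2947 to 6379 in MI, overlapping), and of 6 tested macrophage markers 2 were (5.59 to 9.91 and 17.8 to 89.0). The 7 lymphatic markers summed to 1870 to 3228 in sham P56 and 1066 to 2472 in MI P56, overlapping. All 7 had negative differences (median -0.46), with 0 called. Within sham P56 the cardiomyocyte sums were 2346, 2208, 1559 and 1304 in libraries 1, 2, 3 and 5, so that libraries 3 and 5 were lowest for both the sum and Cox6a2. Library 1 was highest for the sum, whereas library 2 was highest for Cox6a2. The part of these cells in the differences of Cox6a2 and Cox8b was not tested.

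Complex II came closest to a further call at P56. Sdhb (chromosome 4, 140961203 to 140979193) was at 9.70, 13.7, 6.93 and 5.39 in sham P56 and 3.74, 3.00 and 2.92 in MI P56, a difference of -1.17 ± 0.33 on the log2 scale (limma adjusted p = 0.0557, and 0.718 with all 16 libraries). Without sham P56 library 5 it passed (-1.36, limma adjusted p = 0.0410), as it did with a minimum value of 5 (adjusted p = 0.0467, where 5.4% of all genes were called) and with quantile normalization (adjusted p = 0.0366, where 3.96% were). Sdhb reached 5 only in the sham P56 libraries and MI P1 library 2. It thus met that minimum through the group where it was high, and fewer genes were tested there (7236 against 13033). Sdha (chromosome 13, 74322254 to 74350280) was at 55.2, 82.3, 54.0 and 50.4 in sham P56 and at 35.4, 36.8 and 37.1 in MI P56 (-0.69 ± 0.21, limma adjusted p = 0.0818). For both genes every MI library lay below every sham library, as it did for 5.79% of all genes tested. Sdhd was at 5.76, 11.6, 10.5 and 6.79 against 3.47, 3.69 and 6.68, with the groups overlapping (-0.78 ± 0.32, limma adjusted p = 0.201), and Sdhc at 14.2, 22.0, 12.5 and 14.9 against 12.9, 12.9 and 14.6 (-0.20 ± 0.27, adjusted p = 0.759). All 4 differences were thus negative, with a median of -0.73, and the cardiomyocyte, blood endothelial and pericyte sums given above were lower in the MI P56 libraries too. So was the mean of the lymphatic marker sums, with the groups overlapping. The mean fibroblast and macrophage sums were higher, 2.53 and 7.27 times those of sham P56, with the fibroblast sums overlapping. The part of any of these cells in the complex II differences was not tested. DESeq2 on the recovered reads called 4 members lower, Cox6a2, Sdhb (adjusted p = 0.00525), Ndufa5 (0.0267) and Sdha (0.0328), where it called 6.64% of all genes. The quasi-likelihood test of edgeR called Cox6a2 alone, where it called 2.62% of all genes.

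**Figure D4:**
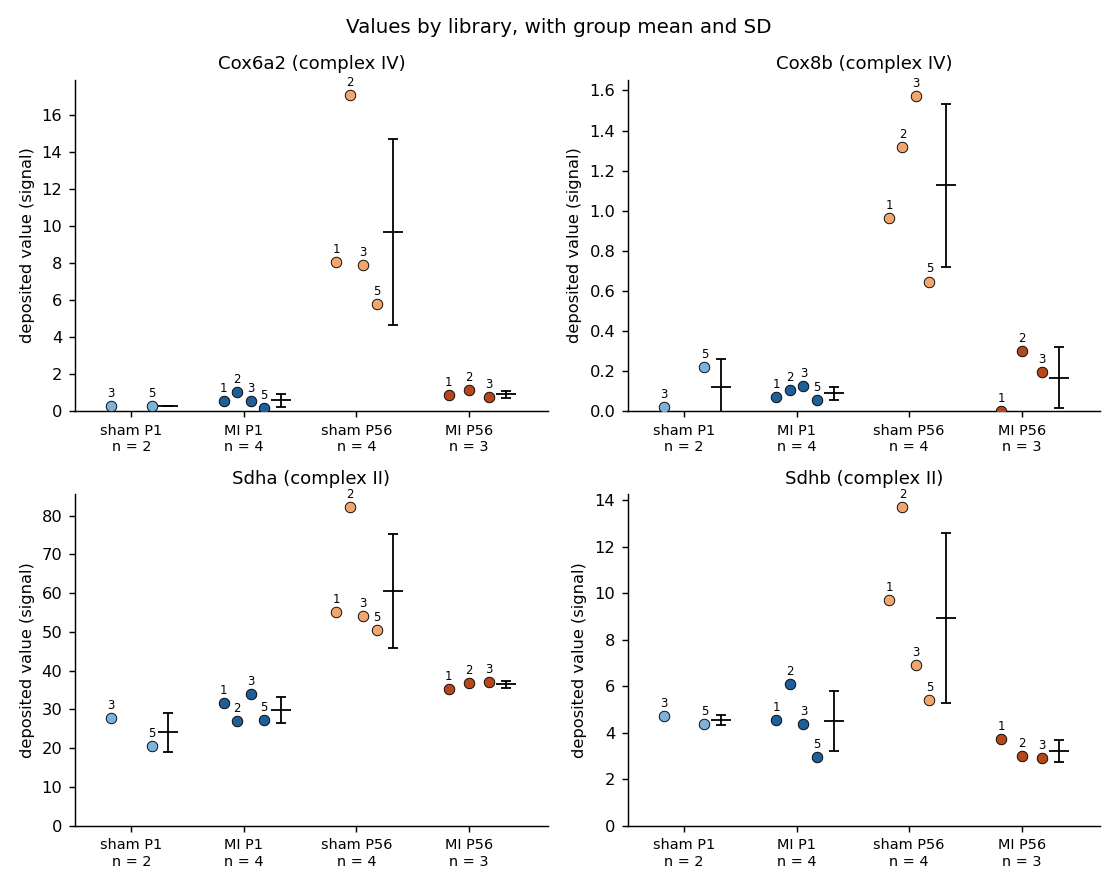
Deposited values (signal) of Cox6a2, Cox8b, Sdha and Sdhb in the 13 libraries, with the library number over each point and the group mean and SD as bars (cut off at 0). In each panel all 4 sham P56 libraries lie above all 3 MI P56 libraries, and for Cox6a2, Cox8b and Sdha above all 6 neonatal libraries as well.

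The median log2 difference of the 72 tested members was -0.18, against 0.01 for all genes tested, with 48 negative and 24 positive, and without sham P56 library 2 the members' median was -0.07. By complex the medians were -0.14 for I (34 tested), -0.73 for II (4), -0.36 for III (6), -0.08 for IV (12) and -0.15 for V (16). Of the 72, 8 had every MI value below every sham value and 2 above, where 5.79% and 8% of all genes did. Ndufa5, an accessory subunit of complex I (chromosome 6), was at 3.07, 8.33, 2.70 and 2.48 in sham P56 and 0.999, 1.23 and 1.24 in MI P56 (-1.13 ± 0.38, limma adjusted p = 0.113). The most abundant member, Atp5b, was at 139, 207, 159 and 146 in sham P56 and 190, 164 and 181 in MI P56 (0.15, 95% interval -0.26 to 0.56). Atp5a1, which assembles with it in the catalytic head, was at 86.6, 178, 64.3 and 68.8 against 49.4, 56.1 and 63.1 (-0.69, 95% interval -1.29 to -0.09, limma adjusted p = 0.211). The 95% interval of a member reached a median of 0.70 to either side.

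**Figure D5:**
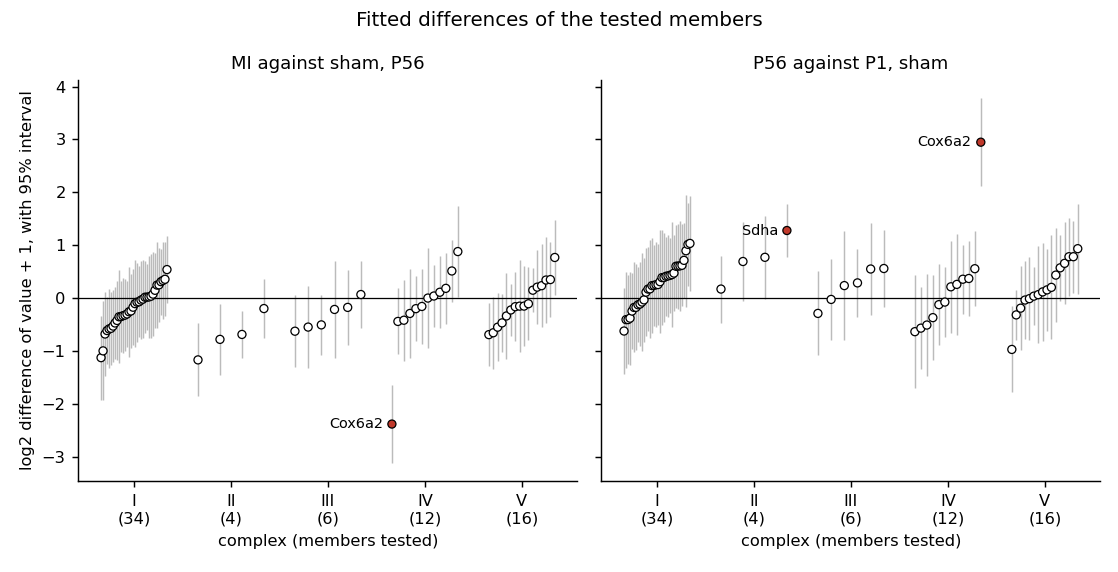
Log2 difference of value + 1 with its 95% interval for the 72 tested members, grouped by complex, for MI against sham at P56 (left) and for P56 against P1 in sham hearts (right); filled points have a limma adjusted p under 0.05. Cox6a2 is lowest on the left at -2.38 and highest on the right at 2.95, and Sdha is the other filled point, at 1.28.

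The comparison of P56 with P1 in sham hearts asks how the adult cells differ from neonatal ones without infarction. Cox6a2 was higher in adults: it was at 0.295 and 0.290 in sham P1 against 5.77 to 17.1 in sham P56, a log2 difference of 2.95 ± 0.40 (limma adjusted p = 6.8e-05; 3.09 ± 0.42 and adjusted p = 2.78e-04 with 16 libraries). The means differed 33.2-fold, with 14 and 8 reads behind the neonatal values. Sdha was higher as well, at 27.7 and 20.6 in sham P1 against 50.4 to 82.3 in sham P56, 2.50 times by the means. Its log2 difference was 1.28 ± 0.24 (limma adjusted p = 0.00137). With all 16 libraries it was 0.84 ± 0.44 (adjusted p = 0.255), where the 2 added sham P1 libraries had Sdha at 80.6 and 24.2. Without sham P1 library 5, which leaves 1 sham P1 library assumed to vary like the others, it was 1.07 (adjusted p = 0.0585). These were the 2 members called of 72, where 13.2% of all genes were called, 5.89% higher and 7.28% lower. With 16 libraries Cox6a2 was the 1 member called, where 3.91% of all genes were. The edgeR test called both (10.8% of all genes).

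The other complex II genes did not pass the test. Sdhb was at 4.70 and 4.38 in sham P1 against 5.39 to 13.7 (0.77 ± 0.37, limma adjusted p = 0.194), Sdhd at 4.24 and 5.40 against 5.76 to 11.6 (0.69 ± 0.36, adjusted p = 0.232) and Sdhc at 13.9 and 13.6 against 12.5 to 22.0 (0.17 ± 0.30, adjusted p = 0.771). Sdha, Sdhb and Sdhd were higher in sham P56 with no overlap between the groups, as were 16.3% of all genes tested. Ndufb10, an accessory subunit of complex I, was at 1.54 and 2.39 in sham P1 and 7.84, 4.24, 3.91 and 4.42 in sham P56 (1.01 ± 0.37, limma adjusted p = 0.0809; DESeq2 adjusted p = 0.0346, where DESeq2 called 16.5% of all genes), and without sham P56 library 2 it passed the limma test (1.07, adjusted p = 0.0433). Cox8b had 1 and 6 reads in sham P1 and 38 to 87 in sham P56, and without the filter it was called (log2 difference 0.91, limma adjusted p = 0.0189, where 11.4% of all genes were called). The largest negative difference was that of Atp5d, the delta subunit of ATP synthase, at 9.45 and 10.3 against 3.99, 5.92, 5.55 and 3.18 (-0.97 ± 0.39, limma adjusted p = 0.110).

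The tested members had a median of 0.24 (all genes 0.00), with 48 positive and 24 negative, and 0.18 without sham P56 library 2. By complex the medians were 0.25, 0.73, 0.26, 0.07 and 0.14 for I to V. For 16 of 72 every adult value lay above both neonatal values and for 2 below, where 16.3% and 16.7% of all genes did. With all 16 libraries the median of the members was 0.45, but that of all genes was 0.36. The cardiomyocyte marker sum was 9.70 times as high in sham P56 as in sham P1, and those of blood endothelium and of pericytes and smooth muscle 3.24 and 4.46 times. Their part in these differences was not tested.

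At P1 no member passed the test between MI and sham hearts. The limma test called 0 of 72 members and 0% of all genes, edgeR called 0 members and DESeq2 0 (0.0537% of all genes), and 1 member had an unadjusted p under 0.05. This was Uqcrh, at 6.12 and 3.44 in sham P1 and 8.94, 9.13, 10.4 and 7.58 in MI P1 (log2 difference 0.82 ± 0.34, limma adjusted p = 1). With 16 libraries its sign turned (-0.48). Next by p among the positive differences were Ndufb5 (0.62 ± 0.34) and Ndufa9 (0.61 ± 0.34), both of complex I, and among the negative ones Ndufc1 of complex I (-0.68 ± 0.40), Cox6b1 of complex IV (-0.61 ± 0.38) and Atp5d (-0.59 ± 0.39). The 3 negative ones became positive with 16 libraries. The median of the members was 0.05 and that of all genes 0.02, with 7 members above and 3 below without overlap, where 8.89% and 7.27% of all genes were. Cox6a2 was at 0.295 and 0.290 in sham P1 and at 0.544, 1.05, 0.548 and 0.164 in MI P1 (0.26, 95% interval -0.58 to 1.09), and Sdha at 27.7 and 20.6 against 31.6, 27.1, 33.9 and 27.2 (0.31, 95% interval -0.20 to 0.81).

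Whether the response to MI differed between the ages was tested as the difference of both responses. Cox6a2 had a value of -2.64 ± 0.53 (limma adjusted p = 0.0359), the 1 member called of 72, where 0.483% of all genes were called (0.322% higher and 0.161% lower). This call was not firm, and was lost in 12 of 23 alternatives. It was lost with all 16 libraries (-3.02, adjusted p = 0.190), where 0.00755% of all genes were called, with edgeR (adjusted p = 0.0567, where 0.338% were called), with a pseudocount of 0.25 (0.0523) or 4 (0.0504), and without sham P1 library 3 (0.115) or 5 (0.319), MI P1 library 1 (0.0753), 2 (0.0625) or 3 (0.0796), or MI P56 library 1 (0.0630) or 3 (0.115), while the value stayed between -2.83 and -2.35 without any 1 library. DESeq2 called it (adjusted p = 3e-04, where 2.49% of all genes were called). Next by p came Sdha (-0.996 ± 0.32, limma adjusted p = 0.193) and Atp5a1 (-1.15 ± 0.43, adjusted p = 0.298). The cardiomyocyte markers had 3 of 14 called lower in the same test.

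Between the adult and neonatal cells after MI no member passed the test. The limma test called 0 of 72, where 5.35% of all genes were called (2.09% higher and 3.26% lower), and 0 members had an unadjusted p under 0.05. With 16 libraries 0 members were called as well (0.106% of all genes), and so with edgeR (3.73%) and DESeq2 (7.86%). Cox6a2 was at 0.882, 1.12 and 0.749 in MI P56 against 0.164 to 1.05 in MI P1 (0.31, 95% interval -0.43 to 1.04), and Sdha at 35.4 to 37.1 against 27.1 to 33.9, without overlap (0.28, 95% interval -0.17 to 0.73). The smallest p belonged to Atp5sl (0.73 ± 0.39), Ndufa13 (0.57 ± 0.32) and Ndufb7 (0.53 ± 0.32), the latter pair of complex I, in the positive direction. In the negative direction it belonged to Uqcrfs1 (-0.60 ± 0.32), Ndufs4 of complex I (-0.50 ± 0.30) and Atp5g3 (-0.39 ± 0.26), with adjusted p of 0.339 or more in all 6. The median of the members was -0.04 and of all genes 0.01. Of the members 3 were higher and 2 lower without overlap, where 9.44% and 11.2% of all genes were. The comparisons share groups of libraries with each other, so their values for a gene are not independent.

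The subunits encoded by mitochondrial DNA showed no called difference. Of 13 such genes 7 were in the table, and 0 of 7 were called in any of the 5 comparisons. They summed to 12748 to 69074 in sham P56, 10230 to 26823 in MI P56, 21907 and 41193 in sham P1 and 15833 to 39911 in MI P1. The groups overlapped, and sham P56 alone spanned all other libraries but MI P56 library 3. Their median log2 difference was -0.42 for MI against sham at P56 and -0.55 at P1, with all 7 negative in both (-0.55 and -2.27 with 16 libraries). It was -0.23 for P56 against P1 in sham hearts (-1.82 with 16 libraries). Without sham P56 library 2 the ratio of the summed values of MI to sham at P56 turned from 0.658 to 1.08, and that of sham P56 to sham P1 from 1.01 to 0.617.

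The genes listed here as core subunits, among them Sdha, Uqcrc2, Cox4i1 and Atp5b, were tested for all 19 in the table. For MI against sham at P56 0 of 19 were called (median -0.32), where 3.42% of all genes were, and with age in sham hearts 1 of 19, Sdha (median 0.29), where 13.2% of all genes were.

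Genes around the respiratory chain were described by lists that hold no members. For MI against sham at P56, 0 of 33 tested assembly factors, 0 of 9 carriers, 0 of 17 TCA cycle genes and 0 of 14 regulators of mitochondrial genes were called. Among all genes 3.42% were called there. With age in sham hearts 2 of 33 assembly factors were called (Cox17 higher, Cox19 lower), 3 of 9 carriers (Coq9 higher, Slc25a3 and Slc25a5 lower), 1 of 17 TCA cycle genes (Ogdh, higher) and 1 of 14 regulators (Pprc1, lower). In that comparison 13.2% of all genes were called, 5.89% higher and 7.28% lower. Slc25a5, a carrier that exchanges ADP for ATP across the inner membrane, was at 13.2 and 14.2 in sham P1 and 6.43, 3.60, 3.89 and 4.56 in sham P56 (-1.42 ± 0.33, limma adjusted p = 0.00629). It was not called without sham P1 library 3 (adjusted p = 0.0566), without library 5 (0.0867) or with all 16 libraries (0.442). After MI the calls with age were Uqcc1, an assembly factor of complex III (higher), the phosphate carrier Slc25a3 (lower) and Gabpb1, a GABP subunit (lower). Among all genes 5.35% were called with age after MI. Slc25a3 was at 98.3, 88.7, 105 and 102 in MI P1 and 55.9, 48.0 and 57.6 in MI P56 (-0.86 ± 0.20, limma adjusted p = 0.0167), and the call was lost without MI P56 library 2 (adjusted p = 0.101) and with all 16 libraries (0.722). The calls of Cox17, Cox19, Coq9, Ogdh, Pprc1, Uqcc1, Gabpb1 and, in sham hearts, Slc25a3 were each lost when any one of several libraries was left out (3 such libraries for Ogdh, 11 for Cox19). The gene for NRF-1, Nrf1, was at 8.56 to 12.2 in sham P56 and 7.52 to 23.4 in MI P56 and was not called (0.40 ± 0.30, adjusted p = 0.542).

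Of 16 tested glycolysis genes, 2 were called higher and 1 lower after MI at P56, where 2.36% and 1.07% of all genes were. Lactate dehydrogenase A (Ldha), which turns pyruvate to lactate, was at 17.4, 10.5, 20.2 and 24.1 in sham P56 and 50.8, 53.8 and 50.6 in MI P56 (1.52 ± 0.28, limma adjusted p = 0.00363). Ldhb, the form of heart muscle, was at 8.96, 6.23, 6.89 and 4.08 in sham P56 and 0.745, 1.06 and 1.56 in MI P56 (-1.81 ± 0.32, limma adjusted p = 0.00332). The groups did not overlap for either gene, and both calls held without any 1 library but were lost with all 16 (adjusted p = 0.730 and 0.0608). The third call, the glucose transporter Slc2a1 (higher), was lost when any one of 6 libraries was left out. With age in sham hearts, where 5.89% of all genes were called higher and 7.28% lower, 3 of the 16 glycolysis genes were called. Ldhb rose from 0.506 and 0.942 (2.10 ± 0.37, limma adjusted p = 7.4e-04, and 0.00399 with 16 libraries). Ldha fell from 45.1 and 42.2 (-1.28 ± 0.32, limma adjusted p = 0.00992), and this call was lost without sham P1 library 3 (0.0937) or 5 (0.0816) and with 16 libraries (0.914). Slc2a1 also fell, again with the call lost without either sham P1 library. The response of Ldhb to MI differed between the ages (-2.88 ± 0.49, limma adjusted p = 0.0159), a call lost without sham P1 library 3 (0.0892) or 5 (0.127), without MI P1 library 1 (0.0534) and with 16 libraries (0.123). The cardiomyocyte marker sums given above had the same direction as Ldhb in these comparisons, and their part in it was not tested.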

How the data were processed

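RNA-seq libraries made with a NuGEN Ovation kit from sorted cells were trimmed (Trimmomatic), aligned to mm10 (STAR), counted (HTSeq) and scaled with edgeR, per the submitters' processing notes; versions and strand use are not given in the sources used here. The deposited signal is what the authors call CPM, in which the library sizes carry TMM scaling, so columns differ in their sums; plain CPM had been assumed. Whole reads were recovered for 100% of values (tolerance 0.01 read). The main test was limma 3.58.1 (trend, R 4.3.3) on log2(value + 1) over 4 groups in the 13 libraries with at least 10000 genes with a read, for the 13033 genes that reached 1 in 4 or more libraries, two-sided, Benjamini-Hochberg adjusted, called under 0.05. Recovered reads were tested with edgeR 4.0.16 and DESeq2 1.42.0. The procedure was also run on simulated data in which only genes with a mean above 5 were changed. That run does not cover the 52 members with a mean under 5, Cox6a2 among them. The library numbered 5 in each group is assigned by group name only. Named were members called in any comparison, otherwise the 3 of smallest p per direction, tissue isoforms, core subunits, and the extremes of each complex; Ndufa5, Ndufb10 and the complex II genes outside their called comparison were singled out after their values were seen. Members and lists were chosen with earlier results of these data known. Values of 1 core subunit are not reported here.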

Additional observations from a re-analysis of the deposited data

Results flagged for a closer look

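Within groups of 4 libraries, 98 sets of values (49 members and sums in each of MI P1 and sham P56) were examined for 1 library far from the rest, and 12 were found, 8 of them in sham P56 library 2. Chance flags about 1 in 20 such groups, and the sets are not independent, since the sums hold the members. In sham P56 library 2, Ndufa4 was at 22.3 (others 4.66 to 7.67), Ndufa5 at 8.33 (2.48 to 3.07), Ndufs1 at 29.0 (9.26 to 11.5) and Sdha at 82.3 (50.4 to 55.2). In the same library the sum of all members was 985 (622 to 643), of complex II 130 (77.5 to 84.9), of complex III 60.5 (30.8 to 31.6) and of complex V 499 (304 to 311). Ndufb10 was at 7.84 in sham P56 library 1 (3.91 to 4.42). Ndufs8, a core subunit of complex I, was at 0.928 in MI P1 library 5 (3.04 to 3.31), and Uqcrfs1 was at 12.0 in MI P1 library 3 (5.60 to 6.66). The sum of the mitochondrially encoded subunits was 39911 in MI P1 library 3 (15833 to 16502).

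The response of Cox6a2 to MI differed between P56 and P1 by -2.64 on the log2 scale in the test of the difference itself (limma adjusted p = 0.0359), a call lost in 12 of 23 alternatives (adjusted p of up to 0.319), with 4 of 4 sham P56 libraries above all others.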

How the results depend on the processing

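For MI against sham at P56 the count of members called was 1 and became 2 with a minimum value of 5, with no filter, with quantile normalization and with the replicate block, where 2.54% of all genes were called, and 4 with DESeq2; without 1 library it was 1 to 2. For the difference between the ages the count of 1 became 0 with all 16 libraries, with a pseudocount of 0.25 or 4, with edgeR and with the replicate block, and was 0 to 1 without 1 library; a fit of only the groups compared gives no such value. With age in sham hearts the count of 2 became 1 with all 16 libraries and 3 with no filter (Cox8b added) and with DESeq2 (Ndufb10 added), and was 1 to 3 without 1 library. It was 0 for MI against sham at P1 and with age after MI under all 24 alternatives. Cox6a2 kept its call in all 24 alternatives for MI against sham at P56 and for age in sham hearts. It reached 5 only in the sham P56 libraries, where it was high. It thus entered the fit with a minimum value of 5 through that group alone. In the main fit it met the minimum value of 1 in 4 libraries through that group too. Outside sham P56 only MI P1 library 2 and MI P56 library 2 reached 1. The same held in the fits of only the sham groups or only the P56 groups. Fits with a minimum value are thus no separate support for its calls, which were also made with no filter. With 16 libraries, values at P1 turned sign for Uqcrh (-0.48), Ndufc1 (0.30), Cox6b1 (0.24) and Atp5d (0.12), and the cause was not tested. Libraries with the same number did not deviate together (r of -0.3205 to 0.1355), so the numbers were not taken as pairs. The ratio of summed values at P56 without sham P56 library 2 (0.934) was added after seeing the data. The 2 sham P1 libraries limit the precision of every comparison with that group. Of the 13 libraries, sham P1 library 5 had the fewest reads on the members (16686). It also had the fewest reads outside Uqcrc1 and mitochondrially encoded genes, 5572191 against a median of 10153476.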
